A study of Mus musculus with 5 samples.

Results

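The core circadian clock loop is described here by the 10 genes that build it in mouse liver: Arntl, Clock, Npas2, Per1, Per2, Per3, Cry1, Cry2, Nr1d1 and Nr1d2. They were chosen by symbol from a table of 13966 genes, and all 10 were in the table. All 10 also passed the filter on low values used here, a mean normalised read count of at least 5.02 over the libraries, which 8973 genes passed. Npas2 passed narrowly, with a mean of 5.22, and its 3 values under bezafibrate were each below the filter, so it passed through its control values.

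RNA was sequenced from hepatocytes of ICR mice, an outbred stock. The mice had received a probe that fluoresces with fatty acid oxidation, and their liver cells were parted by flow sorting on that signal. The 5 groups are the probe-negative, probe-positive and probe-high gates of mice treated with bezafibrate, a drug that activates the PPAR nuclear receptors, and the probe-positive and probe-negative gates of control mice. Since every group is 1 library, differences have no replicate check, and each value describes these libraries. The sources used here do not give the number of mice, their sex and age, the dose, whether gates share a liver, or the time of day at which livers were taken. Treatment, mouse and time of day therefore cannot be told apart.

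In the clock loop, BMAL1 (encoded by Arntl) pairs with CLOCK or its paralogue NPAS2 on E-box sequences and drives transcription of the Per, Cry and Rev-erb genes. PER and CRY proteins then bind the activator pair and block it, while the Rev-erb nuclear receptors NR1D1 and NR1D2 repress Arntl and Npas2. In liver, RNA of most of these genes cycles over the day, with Arntl and Npas2 peaking at a different time from Nr1d1, Per genes and the output factor Dbp, whereas Clock RNA cycles little. A level of these genes is therefore tied to the hour of sampling, which is unknown here.

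Recovered depth lay between 5056884 and 7146578 reads a library, of which 3000 to 5309 fell on the 10 clock loop genes. Rn45s, the ribosomal RNA precursor gene, held 10.5% to 18.5% of reads under bezafibrate and 34.8% and 36.3% in the control positive and negative libraries, so library scaling matters. Values carry the deposited scaling unless another is named. The others tried were column totals, totals without Rn45s, totals without the highest 100 genes and median of ratios, and they are named beside a member's ratio where one ends or makes a call. Of 6 PPARα target genes, 5 were at least 2-fold higher under bezafibrate in both gates, all except Acot1, where 3.95% of genes analysed were. That list was chosen with earlier results of these data known, so it describes the labelled groups and is no independent check. Of the 5, Vnn1 had 3.23 and 2.67 in control positive and negative, below the filter, so it passed through its bezafibrate values. The 7 hepatocyte markers summed to 68340 to 96012 normalised read counts under bezafibrate and 41401 and 42997 in control positive and negative. Of this, Alb held 48208.5 to 72188.3 and 23064 and 24303.3. In the negative gate 5 of the 7 were higher under bezafibrate and 2 lower, where 51.4% of genes analysed were higher. In the positive gate these were 4 and 3, where 50.4% were. Hnf4a was lower in both, at 637.7 to 694.7 under bezafibrate and 1008.5 and 1032.3 in control positive and negative. The 4 Kupffer cell markers of 7 that were in the table summed to 2.93 to 6.80 under bezafibrate and 7.11 and 3.70 in control positive and negative. The 5 neutrophil markers were not among the genes of the table. The 5 of 6 stellate cell markers in the table summed to 29.8 to 33.7 under bezafibrate and 107.6 and 97.3 in control positive and negative, of which Reln held 28.5 to 29.8 and 105.8 and 93.4, and Lrat was at 0 in control positive. Immediate early genes, which respond to handling and stress, summed to 2576 to 3203 under bezafibrate and 5442 and 5446 in control positive and negative. Erythroid markers, 2 of 5 in the table and nearly all Alas2, summed to 33.1 to 45.5 under bezafibrate and 24.1 and 25.3 in control positive and negative. The hepatocyte, stellate cell, immediate early and erythroid sums parted by treatment, while the Kupffer cell sum overlapped and rests on few reads. The part of these sums in the clock values was not tested. Sinusoidal endothelial markers (5 of 6 in the table) summed to 16.9 to 30.5 over the 5 libraries, and cholangiocyte markers (4 of 5) to 6.46 to 13.1 under bezafibrate and 2.80 and 7.39 in control positive and negative. In bulk libraries fewer cells with a transcript and less of it in each cell cannot be told apart.

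The levels of the clock loop genes spanned a wide range within each library. Per kilobase of the longest transcript, Nr1d1 had the highest mean over the 5 libraries, 87.9 normalised read counts per kilobase (range 77.2 to 99.4), followed by Per1 at 26.9 (23.6 to 30.3). Cry2 followed at 19.5 (16.3 to 22.7) and Nr1d2 at 16.4 (12.9 to 19.4), and the ranges of these neighbours overlap. Below a gap came Clock at 7.04 (6.73 to 7.32), Per3 at 6.55 (3.42 to 8.84) and Per2 at 5.73 (5.07 to 6.40), again with overlapping ranges. Arntl at 3.77 (2.52 to 5.67), Cry1 at 2.48 (2.07 to 3.12) and Npas2 at 1.23 (0.377 to 2.13) had the lowest means, and each overlaps the next. The range of Arntl also overlaps that of Per2. In control positive and negative Arntl, at 5.67 and 4.93, was above Per3, at 4.10 and 3.42. With all exons joined as the length, Nr1d1 and Per1 stayed ahead, and the order changed within the pair of Cry2 and Nr1d2, among Clock, Per3 and Per2, and between Arntl and Cry1. Strand-specific libraries were made, but whether the counting used the strand is not given, so reads of genes on opposite strands may be shared. Nr1d1 overlaps Thra on the other strand over 263 exonic bases, and Thra had few reads beside those of Nr1d1, with normalised read counts of 7.33 to 7.88 over the 5 libraries. Cry2 overlaps the transcript D930015M05Rik over 295 bases, at 6.30 to 7.06 under bezafibrate and 7.33 and 3.49 in control positive and negative.

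**Figure D1:**
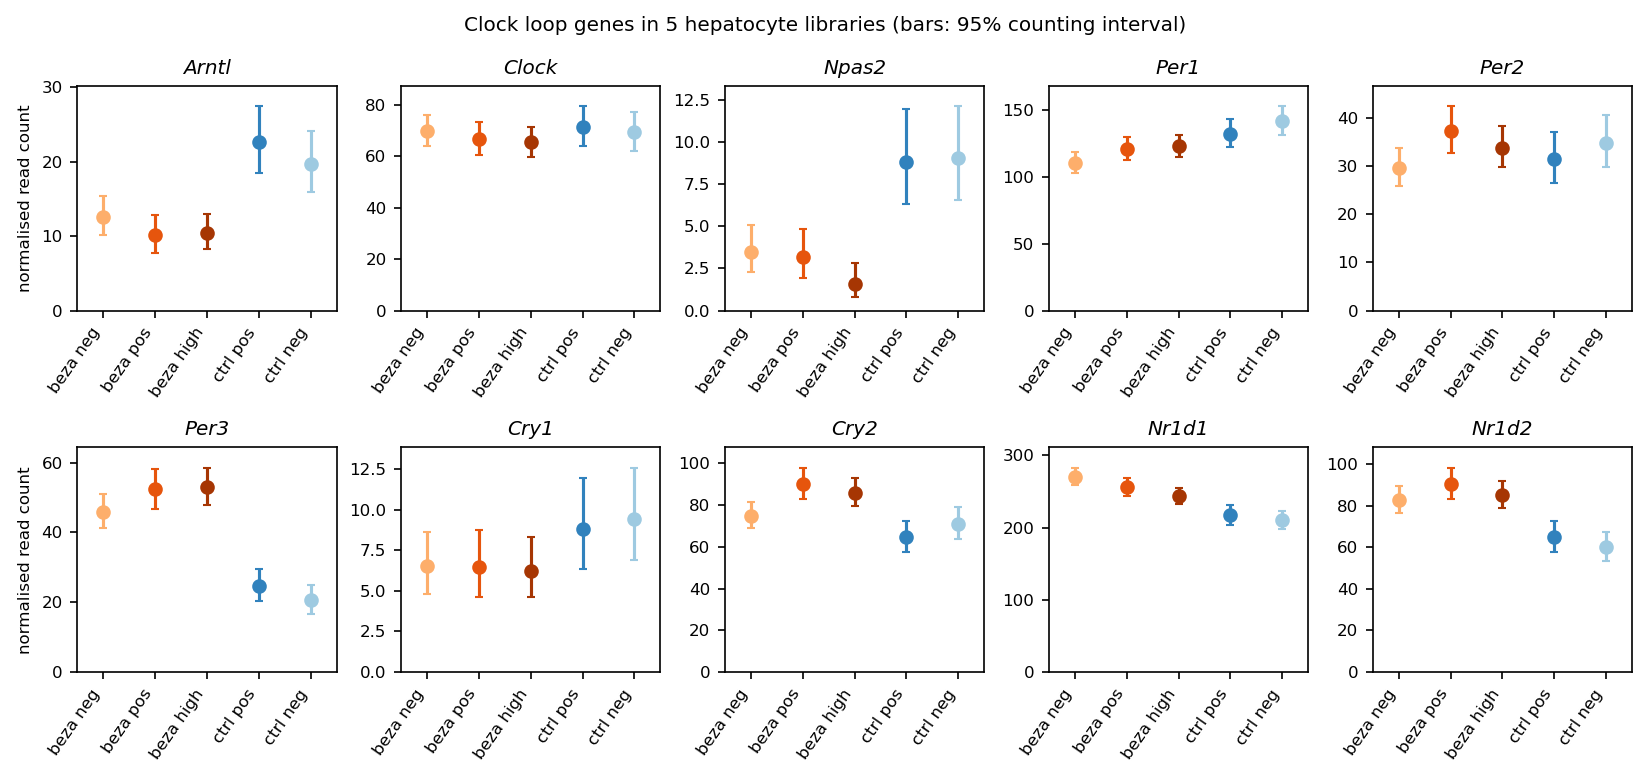
Normalised read count (linear axes from 0, a scale for each gene) of the 10 clock loop genes in the bezafibrate negative, positive and high and the control positive and negative libraries. Points are the deposited values of 1 library each and bars the 95% counting interval. Arntl and Npas2 are lower and Per3 is higher in all 3 bezafibrate libraries than in both control libraries, and Clock lies between 65.6 and 71.4 throughout.

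The positive limb parted into a pair of genes that were lower under bezafibrate, Arntl and Npas2, and Clock, which was close to level with the deposited scaling. Arntl (ENSMUSG00000055116.8, chromosome 7, 113207465 to 113314126, plus strand), which encodes the activator BMAL1, had normalised read counts of 12.5, 10.1 and 10.4 in the bezafibrate negative, positive and high libraries, against 22.6 and 19.7 in the control positive and negative libraries. The groups do not overlap, and the highest bezafibrate value, in the negative gate, is below the lowest control value. The ratio of bezafibrate to control was 0.636 in the negative gate (95% counting interval 0.473 to 0.854) and 0.446 in the positive gate (0.321 to 0.614). With column totals the ratio in the negative gate was 0.747, with an interval that includes 1. On the log2(value + pseudocount) scale, which is used for fold thresholds and understates differences of low genes, the differences were -0.61 and -1.09. Arntl overlaps the antisense gene Gm45355 over 33 bases, and that gene has no row in the table.

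Npas2 (ENSMUSG00000026077.15, chromosome 1, 39193731 to 39363236, plus strand) encodes the paralogue that can replace CLOCK beside BMAL1. It had 3.47, 3.15 and 1.60 in the bezafibrate negative, positive and high libraries, against 8.84 and 9.03 in control positive and negative. These rest on 26, 20 and 12 reads under bezafibrate and 41 and 44 in controls, so the intervals are wide. All bezafibrate values lie below both control values, and the high gate has the lowest. The ratio was 0.384 in the negative gate (0.227 to 0.637) and 0.357 in the positive gate (0.198 to 0.623), or -1.17 and -1.24 on the log2 scale.

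Clock (ENSMUSG00000029238.11, chromosome 5, 76209868 to 76304792, minus strand), which encodes the constitutive partner of BMAL1, had 69.7, 66.8 and 65.6 under bezafibrate and 71.4 and 69.4 in control positive and negative. The groups overlap. Its log2 difference was 0.01 in the negative gate, with a ratio interval of 0.875 to 1.16, and -0.09 in the positive gate, with a ratio of 0.937 (0.809 to 1.08). In the negative gate its direction hangs on the scaling, since the ratio was 1.18 with column totals (1.03 to 1.36) and 0.840 with totals without Rn45s (0.731 to 0.966). Over the 5 libraries its log2 range with the deposited scaling was 0.12, and 8908 of the 8973 genes analysed, or 99.3%, had a range as wide or wider. The range of Npas2 was 1.95, which 199 genes (2.22%) matched or exceeded, and that of Arntl 1.09, which 1543 genes (17.2%) did, where the median gene had 0.63. Npas2 passed the filter through its control values, so its rank by range is a description only.

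Of the repressor genes, Per3 stood out from the other Per genes. Per3 (ENSMUSG00000028957.12, chromosome 4, 151003652 to 151044665, minus strand), which encodes the Period protein that is dispensable for the core rhythm, had 45.9, 52.3 and 53.0 in bezafibrate negative, positive and high, against 24.6 and 20.5 in control positive and negative. Every bezafibrate value is well above both control values. The ratio was 2.23 in the negative gate (1.78 to 2.82) and 2.13 in the positive gate (1.72 to 2.66), and the log2 differences were 1.12 and 1.06. Its range of 1.33 over the libraries was matched or exceeded by 861 genes, or 9.60%.

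The promoter of Per3 is shown because it holds matches to the D-box, the site of the D-box factors described below, whose RNA differed widely between treatments. D-box letters were TTATGTAA or TTACGTAA on either strand. In the 250 bases before the RefSeq start of Per3 (GRCm38.p6, chr4:151044666-151044915, minus strand), TTATGTAA occurs at 205 and again at 158 bases before the start. These are the capitals in this sequence.
Per3: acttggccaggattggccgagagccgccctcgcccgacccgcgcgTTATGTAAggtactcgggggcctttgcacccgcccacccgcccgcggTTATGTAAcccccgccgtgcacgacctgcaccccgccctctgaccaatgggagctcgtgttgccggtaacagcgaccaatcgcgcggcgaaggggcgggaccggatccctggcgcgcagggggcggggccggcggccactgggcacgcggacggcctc
Of 32851 promoter windows of mouse genes, running from 250 bases before to 50 after a start, 1.06% hold a D-box match, and 7 windows (0.0213%) hold at least 2 before the start. Per2 had no window in the RefSeq table and was not searched. Of the other 9 clock loop genes, Per3 was the member with this match. A match of letters is a description of the window and not a bound site.

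Per1 (ENSMUSG00000020893.17, chromosome 11, 69095217 to 69109960, plus strand), a Period gene that is also induced acutely by light, stress hormones and cyclic AMP, had 110.2, 120.7 and 122.6 under bezafibrate and 132.1 and 141.5 in control positive and negative. The groups do not overlap, with the bezafibrate values lower. The ratio was 0.779 in the negative gate (0.704 to 0.863) and 0.914 in the positive gate (0.820 to 1.02). Scaled by column totals, the log2 difference in the positive gate was 0.08 in place of -0.13, so its sign there hangs on the scaling. With column totals the ratio in the negative gate was 0.916, with an interval that includes 1 (0.827 to 1.02). With totals without Rn45s the positive gate also lay below 1, at 0.844 (0.758 to 0.940). The sum of immediate early genes, given above, was also lower in all 3 bezafibrate libraries, and its part in the Per1 values was not tested.

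Per2 (ENSMUSG00000055866.9, chromosome 1, 91415982 to 91459324, minus strand), the Period gene most needed for the rhythm, had 29.6, 37.4 and 33.8 under bezafibrate and 31.5 and 34.9 in control positive and negative. The groups overlap, with the lowest and the highest values both under bezafibrate. The ratio was 0.848 in the negative gate (0.691 to 1.04) and 1.19 in the positive gate (0.962 to 1.47), and both intervals include 1. Other scalings excluded it: in the negative gate the ratio was 0.709 with totals without Rn45s (0.578 to 0.871) and 0.797 without the highest 100 genes (0.650 to 0.980), and in the positive gate 1.37 with column totals (lower bound 1.11).

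The Cry genes, which encode the repressors that hold CLOCK and BMAL1 inactive, lay on different sides of control. Cry1 (ENSMUSG00000020038.10, chromosome 10, 85131700 to 85185064, minus strand) had 6.53, 6.46 and 6.26 under bezafibrate and 8.84 and 9.44 in control positive and negative. All bezafibrate values were lower, but the ratios of 0.692 (0.453 to 1.06) in the negative gate and 0.731 (0.462 to 1.16) in the positive gate have intervals that include 1. Its ratio in the negative gate was 0.578 with totals without Rn45s (0.379 to 0.884) and 0.650 without the highest 100 genes (0.426 to 0.995), so that call hangs on the scaling. Cry2 (ENSMUSG00000068742.11, chromosome 2, 92403646 to 92434043, minus strand) had 74.9, 90.2 and 85.9 under bezafibrate and 64.7 and 71.0 in control positive and negative. All bezafibrate values were higher. Its ratio was 1.05 in the negative gate (0.921 to 1.21), and 1.39 in the positive gate (1.21 to 1.61). The negative gate gave 1.24 with column totals (1.08 to 1.42) and 0.882 with totals without Rn45s (0.770 to 1.01).

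The Rev-erb genes encode the nuclear receptors that repress Arntl and Npas2, and both were modestly higher under bezafibrate. Nr1d1 (ENSMUSG00000020889.11, chromosome 11, 98767932 to 98775333, minus strand) had 270.5, 255.6 and 243.0 under bezafibrate and 217.1 and 210.0 in control positive and negative. Nr1d2 (ENSMUSG00000021775.11, chromosome 14, 18204054 to 18239127, minus strand) had 82.6, 90.5 and 85.1 under bezafibrate and 65.1 and 60.0 in control positive and negative. For both genes all 3 bezafibrate values lie above both control values. The ratio of Nr1d1 was 1.29 in the negative gate (1.19 to 1.39) and 1.18 in the positive gate (1.09 to 1.28). With totals without Rn45s it was 1.08 in the negative gate, with an interval that includes 1. The ratio of Nr1d2 was 1.38 (1.20 to 1.59) and 1.39 (1.21 to 1.60).

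The windows of 3 further genes are shown for the E-box, the site of the activator pair. Letters searched on both strands were CACGTG for the E-box and CACGTT for the E-prime box, its close variant, which reads AACGTG on the other strand. An E-box and an E-prime box cannot match at the same position, and no match given here overlaps another. Capitals mark these matches and, in Per1, the receptor hexamer TGACCT, which is AGGTCA on the other strand. The first is Per1 at chr11:69098699-69098948 on the plus strand, the next Cry1 at chr10:85185055-85185304 on the minus strand, and the last Nr1d1 at chr11:98775378-98775627 on the minus strand, all GRCm38.p6 from RefSeq.
Per1: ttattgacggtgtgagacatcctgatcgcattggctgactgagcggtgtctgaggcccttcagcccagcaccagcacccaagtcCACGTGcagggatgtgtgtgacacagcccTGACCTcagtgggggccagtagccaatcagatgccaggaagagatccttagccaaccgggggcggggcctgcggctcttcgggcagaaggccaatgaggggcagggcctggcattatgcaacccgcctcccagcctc
Cry1: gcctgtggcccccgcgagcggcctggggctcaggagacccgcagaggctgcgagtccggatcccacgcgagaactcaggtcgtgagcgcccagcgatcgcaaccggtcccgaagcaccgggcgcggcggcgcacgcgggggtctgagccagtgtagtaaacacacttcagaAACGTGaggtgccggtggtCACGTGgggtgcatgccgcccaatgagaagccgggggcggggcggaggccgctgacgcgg
Nr1d1: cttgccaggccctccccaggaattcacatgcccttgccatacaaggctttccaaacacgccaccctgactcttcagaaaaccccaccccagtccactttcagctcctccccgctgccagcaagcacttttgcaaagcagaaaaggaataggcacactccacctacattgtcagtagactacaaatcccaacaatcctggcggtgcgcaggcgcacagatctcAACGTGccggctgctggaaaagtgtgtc
Per1 holds an E-box 166 bases before the start, and Cry1 an E-box at 60 and an E-prime box at 79. Nr1d1 holds an E-prime box at 28 bases before the start and Cry2 has another at 166. Over all windows of whole length, 7.15% hold the E-box and 4.68% the E-prime box. The hexamers AGGTCA or GGGTCA, bound by Rev-erb and ROR receptors among others, were in 27.5% of windows and in a window of Arntl, Clock, Per1 and Nr1d2. The 9 genes searched had 13 windows, with several for Arntl, Clock and Per1. These genes thus had more places to match than the single windows behind each share. Of the member genes searched, those with an E-box or E-prime box before the start are Per1, Cry1, Cry2 and Nr1d1. Their treatment ratios are given above and lay on both sides of 1. Per2 had no window and was not searched for any of these letters. Neither the cyclic AMP element TGACGTCA (1.79% of windows) nor the PPAR-type repeat DR1, in which AGGTCA recurs after 1 base (0.0396% of windows), was found in a member's window.

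Per3 was at least 2-fold higher in both gates, as were 3.95% of genes analysed. At 2-fold or more in the negative gate, 1 member was higher (Per3), where 10.2% of genes analysed were, and 1 was lower (Npas2), where 5.86% were. In the positive gate 1 was higher (Per3), where 4.94% were, and 2 were lower (Arntl and Npas2), where 2.91% were. Npas2 was at least 2-fold lower in both gates, as were 2.13%, but it passed the filter through its control values, so its counts among the lower genes are a description only. Intervals lay above 1 for 3 members in the negative gate (Per3, Nr1d1 and Nr1d2), against 32.3% of genes, and below 1 for 3 (Arntl, Npas2 and Per1), against 29%. In the positive gate they lay above 1 for 4 members (Per3, Cry2, Nr1d1 and Nr1d2), against 25.9% of genes, and below 1 for 2 (Arntl and Npas2), against 24.4%. With 10 members these counts of intervals are close to the shares over all genes. At 1.5-fold, Per3 was higher in both gates, where 22.6% of genes were in the negative gate, 15.7% in the positive gate and 12.4% in both. Arntl and Npas2 were at least 1.5-fold lower in both gates, where 17.5%, 11.6% and 8.93% of genes were.

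An additive edgeR fit of gate and treatment on the recovered reads of 4 libraries was added after the data were seen. It has 1 residual degree of freedom, with the interaction of gate and treatment serving as its error, so it does not test differences between replicates. At an adjusted p of 0.05 its treatment term called Per3 and Nr1d2 higher, among 17.3% of 13966 genes, and Arntl and Npas2 lower, among 14.2%. Its gate term called 0 members, beside 0.043% of genes higher and 0.0788% lower, with 519 genes at an unadjusted p under 0.05.

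All 3 bezafibrate libraries were above both control libraries for 4 members (Per3, Cry2, Nr1d1 and Nr1d2), where 35.7% of genes were so parted. They were below for 4 (Arntl, Npas2, Per1 and Cry1), where 33.8% were. The median log2 difference of the positive limb was -0.61 in the negative gate and -1.09 in the positive gate, and that of the Rev-erb genes 0.41 and 0.35. The Per genes had medians of -0.23 and 0.24 and the Cry genes -0.20 and 0.04. Over the 7 Per, Cry and Rev-erb genes together the medians were 0.08 and 0.24, beside 0.02 and 0.00 over all genes analysed. In the negative gate that median of 0.08 became -0.18 when Rn45s was left out of the totals, which moves the median of all genes to -0.22.

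**Figure D2:**
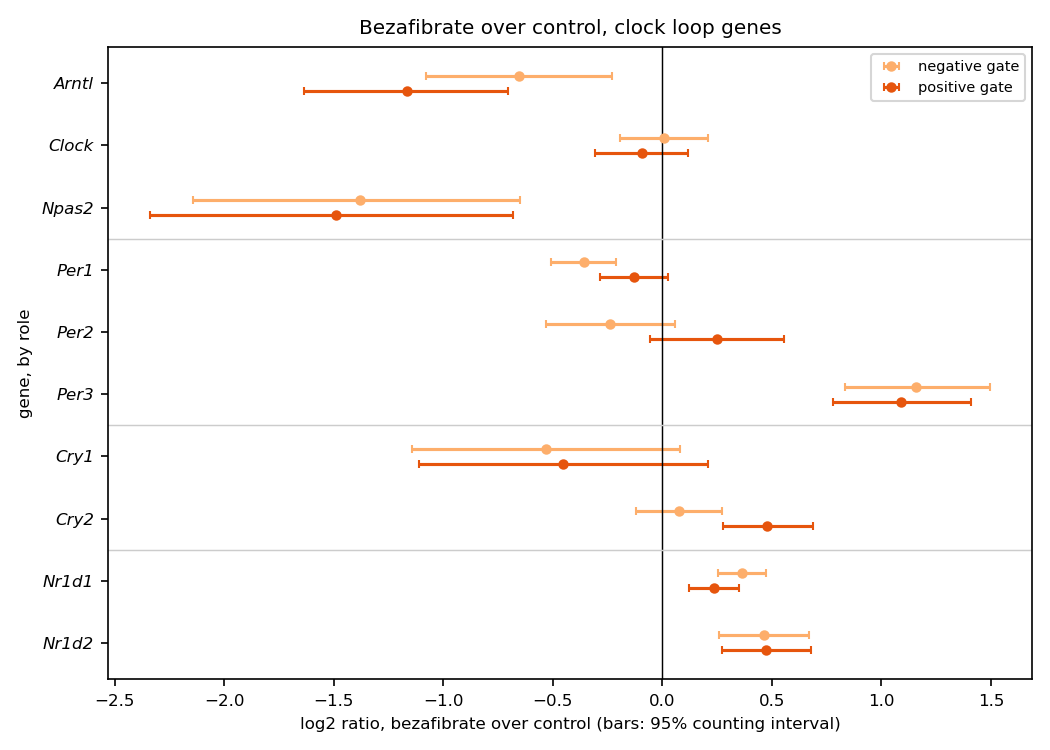
Log2 ratio of bezafibrate to control for the 10 clock loop genes, grouped by role, in the negative gate (light) and the positive gate (dark). Points are ratios of 1 library to 1 library and bars the 95% counting interval. The intervals of Arntl and Npas2 lie below 0 and those of Per3, Nr1d1 and Nr1d2 above 0 in both gates, while those of Clock include 0, all with the deposited scaling.

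**Figure D3:**
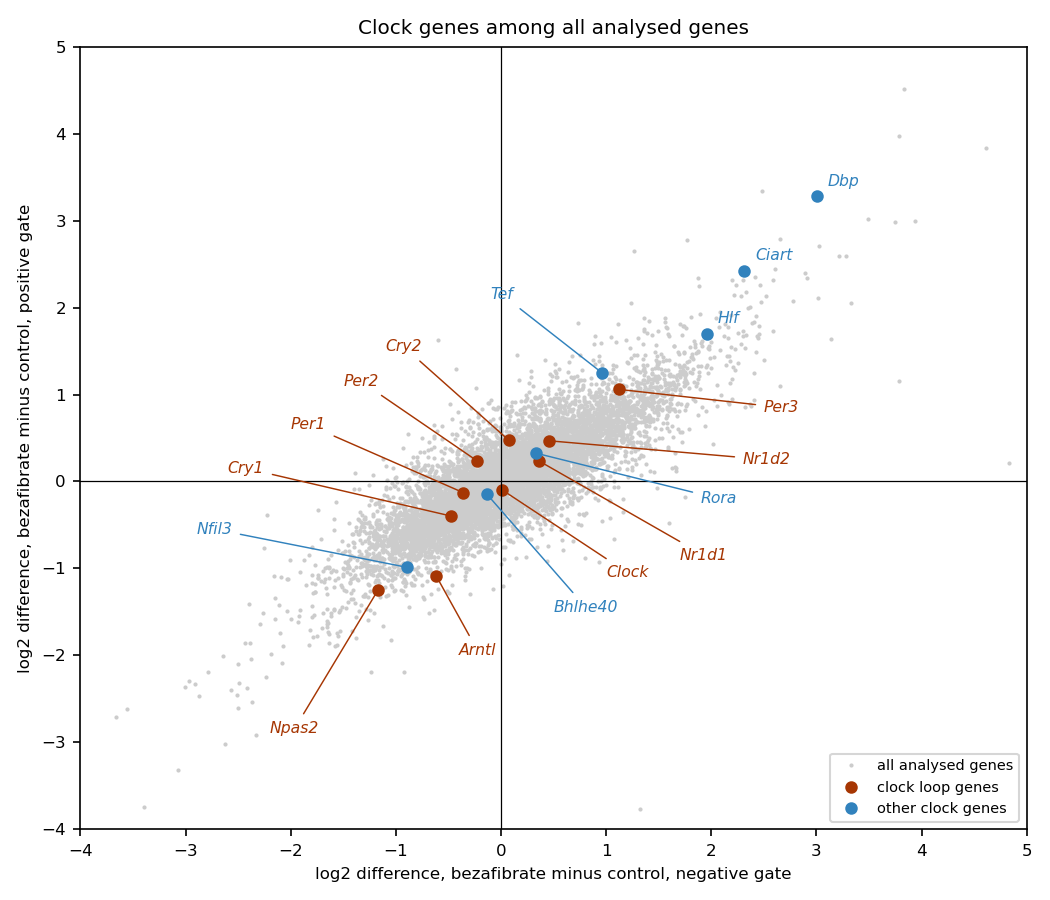
Log2 difference of bezafibrate minus control in the negative gate (x axis) and the positive gate (y axis) for the 8973 genes analysed (grey), of which 6 lie outside the axes. Clock loop genes are in red and other clock genes in blue. Arntl and Npas2 lie at the lower left and Per3 at the upper right, inside the spread of other genes, while Dbp, Ciart and Hlf lie near its upper end.

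Ratios of clock genes inside a library do not depend on how the library was scaled. Arntl reads per Nr1d1 read came to 0.0463, 0.0395 and 0.0428 in the negative, positive and high gates under bezafibrate, against 0.104 and 0.0938 in control positive and negative. The bezafibrate ratios are all lower, and the quotient of bezafibrate to control was 0.494 in the negative gate (0.364 to 0.670) and 0.379 in the positive gate (0.270 to 0.527). Npas2 per Nr1d1 gave 0.0128, 0.0123 and 0.00658 under bezafibrate against 0.0407 and 0.0430 in control positive and negative, a quotient of 0.298 (0.175 to 0.498) and 0.303 (0.167 to 0.533). Both activator genes were thus lower relative to Nr1d1, whatever the scaling. Arntl per Per2 had a quotient of 0.750 in the negative gate (0.522 to 1.08) and 0.376 in the positive gate (0.254 to 0.554), so this pair was below 1 beyond counting error in the positive gate alone. The difference between the gates was not tested between replicates.

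Paralogues within the loop differed from each other as well. These pairs were chosen after the values were seen. Npas2 reads per Clock read were 0.0497, 0.0472 and 0.0244 under bezafibrate against 0.124 and 0.130 in control positive and negative. Per3 reads per Per1 read were 0.416, 0.433 and 0.433 under bezafibrate against 0.186 and 0.145 in control positive and negative. Neither pair overlaps between treatments, and the quotient for Per3 over Per1 was 2.86 in the negative gate (2.23 to 3.70) and 2.33 in the positive gate (1.83 to 2.98). Cry2 per Cry1 was 11.5, 14.0 and 13.7 under bezafibrate and 7.32 and 7.52 in control positive and negative, with a quotient whose interval includes 1 in the negative gate (1.52, 0.974 to 2.38) and not in the positive gate (1.91, 1.18 to 3.09). Nr1d2 per Nr1d1 was 0.306, 0.354 and 0.350 under bezafibrate and 0.300 and 0.285 in control positive and negative. Its quotient was 1.07 in the negative gate (0.912 to 1.26), and 1.18 in the positive gate with an interval that lies just above 1 and reaches 1.39.

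**Figure D4:**
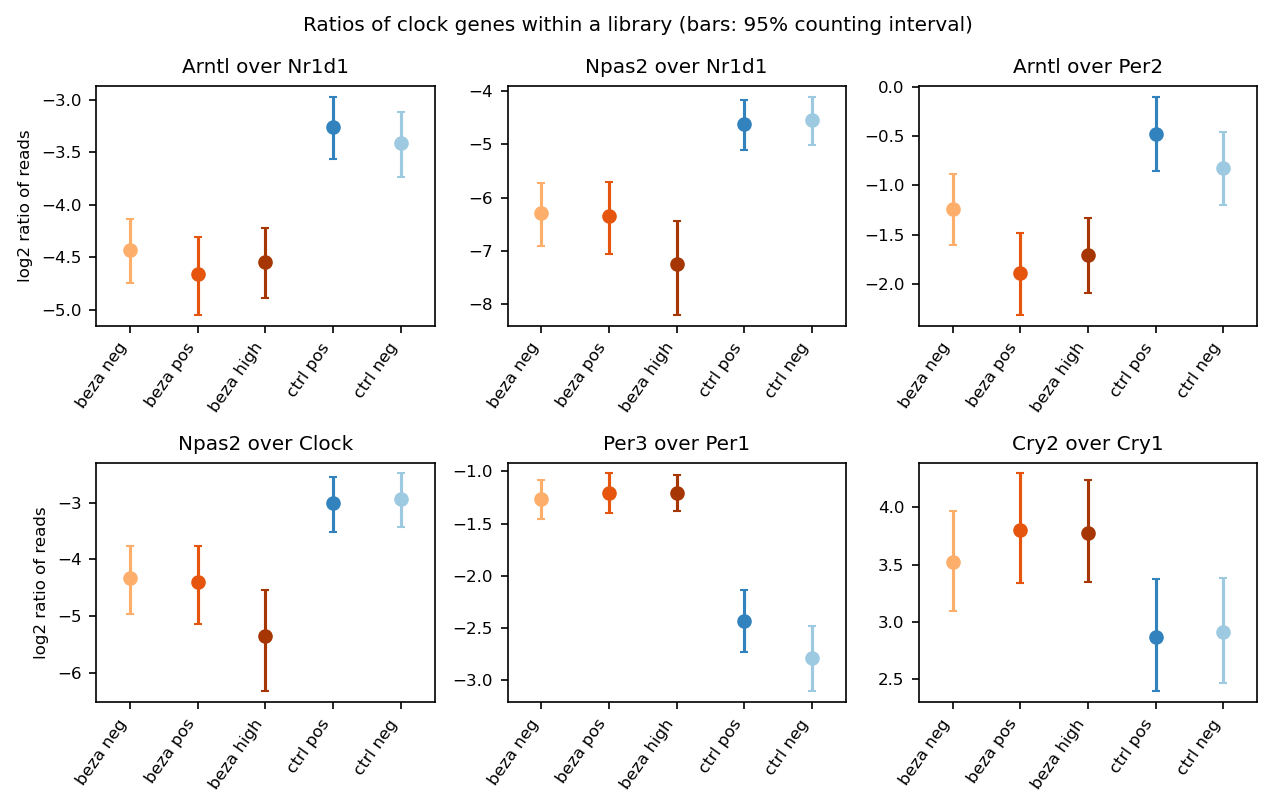
Log2 ratio of the reads of 2 clock genes in the same library, for 6 pairs, in the bezafibrate negative, positive and high and the control positive and negative libraries. Points are 1 library each and bars the 95% counting interval. Arntl over Nr1d1, Npas2 over Nr1d1 and Npas2 over Clock are lower and Per3 over Per1 is higher in all 3 bezafibrate libraries than in both control libraries.

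Between the positive and negative gates of bezafibrate mice, the log2 differences of the 10 clock loop genes ran from -0.29 for Arntl to 0.33 for Per2, whereas Arntl, Npas2 and Per3 each differed by more than that between treatments in both gates. In control mice no interval of the positive over the negative gate excluded 1 for any of the 10 genes, where 4.93% of genes analysed lay above 1 and 4.41% below. Their log2 differences there ran from -0.14 for Per2 to 0.25 for Per3. In bezafibrate mice, the positive gate was higher than the negative gate for 2 members, against 13.7% of genes, and lower for none, against 18.6%. The members were Per2, with a ratio of 1.26 (1.05 to 1.52), and Cry2, with 1.20 (1.07 to 1.35). With totals without Rn45s, and also without the highest 100 genes, 5 members were higher (Per1, Per2, Per3, Cry2 and Nr1d2) and none lower. No member reached 2-fold in either direction, where 0.134% of genes were higher and 0.123% lower, and in control mice none did against 0.145% and 0.189%. The gate ratio under bezafibrate over that in control mice lay above 1 for 3 members (Per1, Per2 and Cry2), where 10.8% of genes did by a log-normal interval, and below 1 for none, where 13.5% did. With column totals the interval of Per1 includes 1.

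No member differed between the high and the positive gate of bezafibrate mice beyond counting error, where 8.21% of genes lay above 1 and 7.75% below. With totals without Rn45s, Nr1d1 was lower in the high gate, at 0.930 (0.869 to 0.995). Npas2 had the lowest ratio there, 0.507, but its interval of 0.226 to 1.09 includes 1. None was 2-fold higher or lower in the high than in the positive gate, where 0.0669% and 0.078% of genes were, while Npas2 was 1.5-fold lower, where 0.97% were. Against the negative gate, the high gate was higher for Per1 at 1.11 (1.01 to 1.22) and Cry2 at 1.15 (1.02 to 1.29), where 12.2% of genes lay above 1. It was lower for Npas2 at 0.461 (0.212 to 0.947) and Nr1d1 at 0.899 (0.843 to 0.958), where 16.9% lay below. Both calls end under another scaling, Npas2 having an interval of 0.230 to 1.03 with totals without Rn45s and Nr1d1 at 0.940 with column totals and 0.973 with totals without Rn45s (0.913 to 1.04). With that last scaling 4 members were higher (Per1, Per2, Per3 and Cry2). Per3 was also higher with column totals, at 1.21 (1.05 to 1.40), and without the highest 100 genes, at 1.20 (1.04 to 1.39). At 2-fold no member was higher or lower than in the negative gate, against 0.111% and 0.156% of genes, and at 1.5-fold Npas2 was lower, against 2.28%. The negative library serves this comparison and that of the positive gate.

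**Figure D5:**
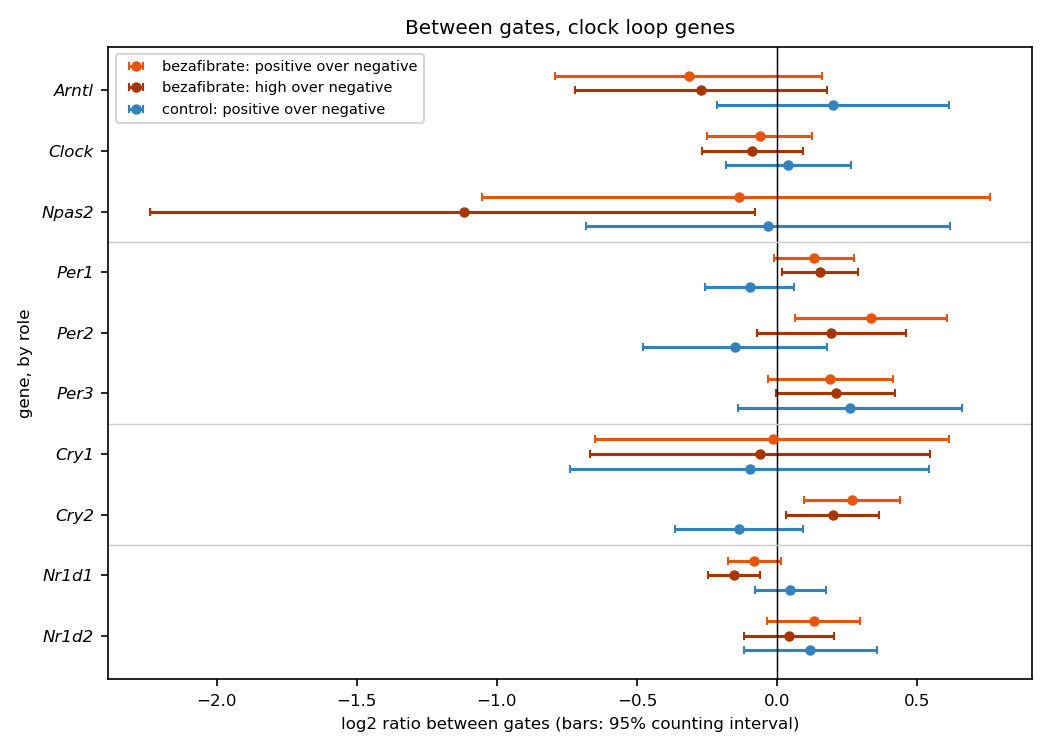
Log2 ratio between gates for the 10 clock loop genes: positive over negative and high over negative under bezafibrate (light and dark orange) and positive over negative in control mice (blue). Points are ratios of 1 library to 1 library and bars the 95% counting interval. All control intervals include 0, and Npas2 in the high gate has the lowest point with a wide interval.

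Dbp and Ciart, which the loop controls, had wider log2 differences between treatments in both gates than any clock loop gene. Of the 4 D-box factors, proteins that bind the D-box downstream of the clock, Dbp, Tef and Hlf were higher under bezafibrate and the repressor Nfil3 was lower. Dbp, a direct E-box target of CLOCK and BMAL1, had 63.1, 69.7 and 70.1 in bezafibrate negative, positive and high, against 6.25 and 6.98 in control positive and negative. The groups lie far apart, with a ratio of 9.03 in the negative gate (6.37 to 13.2) and 11.1 in the positive gate (7.65 to 16.8), and 25 of the genes analysed (0.279%) had as wide a range over the libraries. Hlf had 56.4, 55.5 and 52.0 under bezafibrate against 16.4 and 13.8 in control positive and negative, and Tef 152.9, 176.7 and 174.8 against 73.7 and 78.0. Nfil3, which competes for the same sites, had 37.9, 40.3 and 35.8 under bezafibrate against 81.1 and 71.0 in control positive and negative. Within a library, Arntl reads per Dbp read were 0.199, 0.145 and 0.148 under bezafibrate against 3.62 and 2.82 in control positive and negative. The quotient was 0.0708 in the negative gate (0.0436 to 0.113) and 0.0403 in the positive gate (0.0237 to 0.0668), the lowest of the pairs compared.

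Of the E-box repressors outside the loop, Ciart had 37.7, 41.5 and 34.5 under bezafibrate and 6.90 and 6.78 in control positive and negative, while Bhlhe40 had 336.6, 351.3 and 347.6 against 388.7 and 369.6. Ciart was thus over 5-fold higher, at ratios of 5.57 (3.87 to 8.25) and 6.01 (4.15 to 8.97), and Bhlhe40 slightly lower with the deposited scaling. The direction of Bhlhe40 hangs on the scaling, since column totals multiply ratios by 1.18 in the negative gate and 1.15 in the positive gate. Bhlhe41, below the filter, had 7.06, 7.25 and 6.13 under bezafibrate and 2.80 and 1.64 in control positive and negative. The ROR receptors activate Arntl through the sites that Rev-erb receptors block. Rora had 141.3, 140.3 and 143.9 under bezafibrate and 111.7 and 112.1 in control positive and negative, with ratios of 1.26 in the negative gate (1.14 to 1.40) and 1.26 in the positive gate (1.13 to 1.40). With the deposited scaling Rora was higher while Arntl was lower, and a link between them was not tested. The Rora interval in the negative gate hangs on the scaling, since totals without Rn45s multiply each ratio there by 0.836.

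Regulators of PER and CRY protein and the loop's co-regulators are given beside the shares over all genes. Of 10 kinases and ubiquitin ligases analysed, Usp2, a deubiquitinase, was at least 2-fold higher in both gates, where 3.95% of genes were, none was 2-fold lower, where 5.86% were in the negative gate and 2.91% in the positive gate, and the medians were 0.01 in the negative and -0.03 in the positive gate. Usp2 had 18.3, 19.9 and 18.9 under bezafibrate and 7.33 and 8.01 in control positive and negative. Csnk1e, the casein kinase that marks PER for degradation, had ratios of 0.695 (0.496 to 0.974) and 0.684 (0.470 to 0.995). Both calls hang on the scaling, since column totals multiply ratios by 1.18 in the negative gate and 1.15 in the positive gate. Of 11 co-regulators, none was 2-fold higher, beside 10.2% and 4.94% of genes in the negative and positive gates, or 2-fold lower. They lay above 0 in 3 and below in 8 cases in the negative gate, where 51.4% of genes lay above 0. In the positive gate these were 4 and 7, where 50.4% of genes lay above 0. Sfpq, a partner of PER complexes, was lowest at -0.90 and -0.65.

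Of 10 liver genes under clock control, 7 lay below 0 and 3 above in each gate. Over all genes analysed, 51.4% lay above 0 in the negative gate and 50.4% in the positive gate. The 10 genes had a median of -0.26 in the negative gate and -0.17 in the positive gate. In the negative gate 3 were at least 2-fold lower and 0 higher, where 5.86% and 10.2% of genes were, and in the positive gate again 3 and 0, where 2.91% and 4.94% were. Alas1, the rate-limiting enzyme of haem synthesis, had 421.1, 492.7 and 477.8 under bezafibrate and 1367 and 1271 in control positive and negative. Elovl3, a fatty acid elongase, had ratios of 0.383 (0.241 to 0.599) and 0.300 (0.180 to 0.484). Elovl3 is among the 3 lower genes in each gate. Its bezafibrate values, 3.94 to 4.80, all fell short of the filter on low values, which its control values let it pass. The counts of lower genes that include Elovl3 are therefore a description only. Gys2, the liver glycogen synthase, was higher at 118.0, 111.6 and 105.7 against 61.7 and 60.0 in control positive and negative. Of 6 genes listed for temperature and glucocorticoid cues, the cold-inducible Cirbp was lowest in the negative gate, at -1.19, with -0.63 in the positive gate. All 6 lay below 0 in the negative gate, where 51.4% of genes lay above 0, and 4 had intervals below 1, where 29% did. There 1 was at least 2-fold lower and 0 higher, where 5.86% and 10.2% of genes were. In the positive gate 4 lay below 0, where 50.4% of genes lay above 0, and 3 had intervals below 1, where 24.4% did. None reached 2-fold there, where 2.91% of genes were lower and 4.94% higher.

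Profiles over the 5 libraries were compared by Euclidean distance of centred log2 values. The 4664 or 4665 genes compared with a member had passed a stricter filter on low values. Provisional names (Gm or Rik), pseudogenes and small RNAs were left out. The genes closest to a member were named by a fixed rule. Those of Arntl were Atf4 at a distance of 0.15 and Tenm3 at 0.16, where the median gene was at 1.04. Those of Per3 were Mn1 at 0.11 and Fabp5 at 0.15 (median 1.28), and those of Npas2 were Mup2 at 0.25, which has near-identical copies, and Nolc1 at 0.45 (median 1.72). Clock was closest to Ibtk and Mllt1, Per1 to C2cd2l and Txnl4a, Per2 to Zbtb5 and Dmxl2, Cry1 to Marf1 and Ptprk, and Cry2 to Atrnl1 and Tmem87b. Nr1d1 was closest to Taok1 and Scly, and Nr1d2 to Med23 and Parp9. Arntl, Npas2 and Cry1 lie below that filter and could not be named for another gene.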

How the data were processed

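Bulk RNA was measured in 5 libraries of sorted hepatocytes, 1 a group, grouped by the labels. The deposited values are a normalised gene-level signal: by the values, the authors' table holds read counts divided by 1 factor a library, since values in units of a column's lowest entry over 0 came out whole for 100% of entries (tolerance 0.001 reads). The tools were Bowtie2, RSEM, edgeR and Trimmomatic 0.36, with build mm10, per the submitters' processing notes. Their roles and the normalisation are not given.

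The clock loop genes and the lists set beside them were chosen with earlier results of these data known. Differences are of log2(value + 1.0035), the pseudocount being a millionth of the mean column total, for 8973 genes with a mean of at least 5 pseudocounts. Ratios are plain, with exact Clopper-Pearson 95% intervals from recovered reads, and quotients of ratios have exact conditional intervals. They cover counting error only, since each group is 1 library, and the reads carry no molecular identifiers. Genes were counted at 2-fold, beside the share of all genes analysed. All 10 members are named; of each other list, the 2 highest and 2 lowest in either treatment comparison and 9 clock partners could be named. Alternatives were other pseudocounts, filters, scalings, a 1.5-fold threshold and, added after the data were seen, an edgeR 4.0.16 fit (R 4.3.3) and ratios of paralogues. Steps were tested on simulated data and used scipy 1.17.1, pandas 2.3.3 and numpy 2.4.6 in Python 3.11.15. Gene positions and lengths are from GENCODE for GRCm38. Promoter sequences are from RefSeq, GRCm38.p6, matched by symbol for 9 of the 10 genes, all except Per2.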

Additional observations from a re-analysis of the deposited data

Results flagged for a closer look

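For Per1, Per2 and Cry2 the ratio of the positive to the negative gate differed between treatments beyond counting error. The gate ratio under bezafibrate over that in controls was 1.17 for Per1 (95% counting interval 1.01 to 1.36), 1.40 for Per2 (1.04 to 1.88) and 1.32 for Cry2 (1.08 to 1.61). On the log2 scale the gate differences were 0.13 under bezafibrate and -0.10 in controls for Per1, 0.33 and -0.14 for Per2, and 0.26 and -0.13 for Cry2, of which Per2 and Cry2 under bezafibrate were beyond counting error by themselves. With column totals the quotient of Per1 was 1.15 with an interval that includes 1 (0.991 to 1.34), while Per2 and Cry2 lay above 1 under all 5 scalings. By a log-normal interval, 10.8% of genes analysed had such a quotient above 1 and 13.5% below, against 3 and 0 of the 10 members. With 1 library a group the difference was not tested between replicates.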

How the results depend on the processing

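No paired analysis was possible because each group has 1 library and the labels give no replicate numbers. Of 60 differences of the 10 members over 6 comparisons, none that had been beyond counting error changed sign under another scaling or pseudocount. The sign was kept by 60 with a pseudocount 0.2 or 5 times as large, 59 with median of ratios scaling, 56 without the highest 100 genes, 54 with column totals and 50 with totals without Rn45s. Under all 5 scalings the intervals of Npas2 lay below 1 and those of Per3 and Nr1d2 above 1 in both gates. Arntl lay below 1 except in the negative gate with column totals, Nr1d1 above 1 except in the negative gate with totals without Rn45s, and Per1 in the negative gate below 1 except with column totals. In that gate Clock lay above 1 with column totals and below 1 with totals without Rn45s.

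With column totals the median of the Rev-erb genes was 0.64 in the negative gate and 0.56 in the positive gate, and that of the Per, Cry and Rev-erb genes 0.31 in the negative gate. With totals without Rn45s these were 0.15 for the Rev-erb genes and -0.18 for the 7 genes in the negative gate, and 0.17 for the Rev-erb genes of bezafibrate positive minus negative. The median of all genes then moved to 0.25 (negative gate) and 0.20 (positive gate) with column totals, and to -0.22 and -0.10 with totals without Rn45s, so these shifts follow from the scaling.

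Counts of members at 2-fold rest on genes near the threshold. In the negative gate, 0 were higher with totals without Rn45s or a pseudocount 5 times as large, and 0 were lower with column totals, that pseudocount or a filter of 20 pseudocounts, against 2 at 1.5-fold. In the positive gate, 0 were higher with totals without Rn45s or a pseudocount 5 times as large, 1 was lower with column totals, and 0 were lower with that pseudocount or the filter of 20, which removes Arntl, Npas2 and Cry1. For the high gate, 1 member (Npas2) was lower than in the positive gate at 1.5-fold, and 1 than in the negative gate at 1.5-fold or a pseudocount 0.2 times as large. Over all genes the 2-fold counts in the negative gate were 919 higher and 526 lower as deposited, 1431 and 271 with column totals and 549 and 1051 with totals without Rn45s, and in the positive gate 443 and 261, 812 and 134, and 336 and 366.

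Depth limits Npas2, Cry1 and Arntl, with at most 105 reads in a library.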
